A study of Mus musculus with 2 samples.

Results

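The natural killer (NK) receptor NK1.1, its closest Klrb1 relatives and the Clec2 ligands that the family binds were followed in CD45+ leukocytes of the mouse liver. The members were the rows of the gene list whose symbol was Klrb1c (NK1.1 itself), Klrb1f, Klrb1a, Klrb1b, Clec2d or Clec2i, 6 of 28692 genes, and all 6 were found. Livers came from 6-week-old female mice, C57BL/6 by the study's methods, and CD45+ cells were sorted by FACS. The vehicle library came from vehicle-treated mice. The antibiotics library came from mice that drank ampicillin at 1 mg/mL, vancomycin at 0.5 mg/mL, neomycin at 0.5 mg/mL and metronidazole at 1 mg/mL for 1 week. Each condition was captured as 1 library with the 10x Chromium Single Cell 3′ kit, and the sources used do not state how many mice gave cells to it. With 1 library per condition no test was possible, and differences between the libraries cannot be told apart from differences between animals, sorts or captures. All intervals are 95% intervals that cover counting error only.

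The Klrb1 genes encode C-type lectin-like receptors of the NKR-P1 family, which sit on NK cells and on subsets of T cells. NK1.1 is an activating receptor that signals through the Fc receptor gamma chain, and its antibody epitope is the classical marker of NK and NKT cells in C57BL/6 mice. Klrb1b encodes an inhibitory receptor for Clr-b, the product of Clec2d, which is displayed on most leukocytes and lets NK cells monitor the loss of a self signal. Klrb1f encodes a receptor for Clr-g, the product of Clec2i, and Klrb1a a receptor without an inhibitory tail motif. In the liver, NK1.1 marks NK cells, type 1 innate lymphoid cells and invariant NKT (iNKT) cells, which are unusually frequent in this organ.

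The 6 genes lie in the NK gene complex of chromosome 6 (GRCm38, the assembly that the submitters' processing notes name as mm10). Klrb1a occupies 128609227 to 128623533, Klrb1c 128778485 to 128789215 and Klrb1b 128813706 to 128826331, all on the minus strand. Clec2i at 128887588 to 128898167, Klrb1f at 129045901 to 129057464 and Clec2d at 129180615 to 129186534 are on the plus strand. The receptors differ in the short tail that carries their signals. The 60 coding bases from the in-frame methionine-aspartate start of GENCODE vM21 transcripts are shown to compare the cytoplasmic tails, with the 6 codons around a tyrosine that has a leucine 3 residues after it in capitals.
Klrb1c: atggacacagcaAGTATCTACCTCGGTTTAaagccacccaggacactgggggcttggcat
Klrb1a: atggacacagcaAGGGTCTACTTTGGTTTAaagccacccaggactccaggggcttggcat
Klrb1b: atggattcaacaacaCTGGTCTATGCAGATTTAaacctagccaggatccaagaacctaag
Klrb1f: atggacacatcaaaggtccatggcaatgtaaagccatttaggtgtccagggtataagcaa
Only the Klrb1b tail had a leucine, isoleucine or valine at the first position of this stretch, which matches the strict pattern of an inhibitory motif. Klrb1c had a serine there, which the broader form of the pattern allows, Klrb1a an arginine, and Klrb1f had no such tyrosine in its first 45 residues. All 4 receptors carried 1 CxCP motif, the docking site of the kinase Lck, starting at residue 31 in Klrb1c, Klrb1f and Klrb1a and at residue 32 in Klrb1b, counted from the start shown, which lies 48 residues into the annotated protein of the Klrb1c transcript and 6 into that of Klrb1a.

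The genes are alike enough for reads to be shared in principle. Coding sequences of Klrb1c and Klrb1a were 92.6% identical, Klrb1c and Klrb1b 85.9%, Klrb1a and Klrb1b 84.6%, and Clec2d and Clec2i 88.3%, whereas Klrb1f was 71.6% to 71.8% identical to the other receptors. The kit counts the 3′ ends of transcripts. Of 403 windows of 98 bases in the last 500 bases of each gene's transcript, 0 occurred unchanged in another member. Only exact matches were counted, so windows that differ at a few bases were not tested. An annotated read-through gene that spans Klrb1b and most of Klrb1c had 0 such windows in common with them. In the 300 bases around each start of transcription (RefSeq, GRCm38.p6, both strands searched), the Runx motif TGTGGT was found at Klrb1c and Klrb1a, as in 16.9% of 27025 promoters. An interferon response element, spelled GAAA, any 2 bases and GAAA, was found at Clec2d alone, as in 3.5% of promoters. The T-box core GTGTGA, found in 14.4% of promoters, and the Ets motif CCGGAAG, found in 9.1%, were in none of the 6.

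Cells were barcodes with at least 1500 UMIs (unique molecular identifiers, 1 per captured transcript) and under 10% mitochondrial UMIs, which left 9002 vehicle and 7050 antibiotics cells with median depths of 3515 and 3331 UMIs. They were sorted in silico, in this order, into B cells (Cd79a at 2 or more UMIs, no Cd3e), plasmacytoid dendritic cells (pDC; Siglech at 2 or more), NK cells (Ncr1 at 1 or more, no Cd3d, Cd3e or Cd3g), iNKT cells (Trav11 at 1 or more), other NKT-like cells (Trac and Cxcr6 at 1 or more) and other T cells (Trac at 2 or more, no Cxcr6). The vehicle library gave 3016 B cells, 174 pDC, 256 NK cells, 330 iNKT cells, 3202 other NKT-like cells and 771 other T cells, with 1253 cells left ungated. The antibiotics library gave 1340, 34, 99, 596, 3635 and 611 in the same order, with 735 ungated. The iNKT gate rests on a Trav11 UMI, and a cell without one may still be an iNKT cell. The paper counted most hepatic NKT cells as iNKT cells by the beta chains found in T cell receptor sequencing. The iNKT and other NKT-like classes are therefore not taken as separate populations. Levels are given in CPM, the UMIs of a gene scaled to 1e6 UMIs of its class. Of all cells, 93 in each library shared a barcode with a cell of the other library, and Scrublet marked 400 vehicle and 141 antibiotics cells as doublets, which were kept.

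Marker lists outside the gates were summed in each class as a check. The 5 B cell markers summed to 9535 and 10717 CPM in vehicle and antibiotics B cells and to at most 1857 CPM elsewhere among the gated classes. The 6 NK markers (Nkg7, Gzma, Prf1, Tyrobp, Klre1 and Eomes) summed to 23933 and 16237 CPM in NK cells, above the other classes, although Tyrobp alone was higher in pDC (6060 and 5324 CPM) than in NK cells (4350 and 3174 CPM). The 5 T cell markers did not set the T cell classes apart, at 3574 and 2745 CPM in iNKT, 3445 and 2634 CPM in other NKT-like and 3344 and 2806 CPM in other T cells. Innate-like T markers stood at 4466 and 4491 CPM in other NKT-like cells and at 2042 and 2696 CPM in other T cells. The sum in other T cells was thus nearer to that of NKT-like cells in the antibiotics library, with Id2 as the largest difference. The transcription factor Id2 alone was at 514 CPM in vehicle and 1167 CPM in antibiotics other T cells. Of the other markers in that sum, Il2rb was at 126 and 275 CPM and Cxcr3 at 142 and 213 CPM. Zbtb16 was at 16.7 and 20.4 CPM, and Cd3d was lower, at 1242 and 1021 CPM. The NK gate was narrow. A further 402 vehicle and 121 antibiotics cells had Ncr1 together with a Cd3 transcript and stayed ungated. In these cells Tyrobp was at 3966 and 3293 CPM and Trac at 17.9 and 8.50 CPM, against 48.7 and 39.0 CPM of Trac in gated NK cells. Gzma was near the gated NK level, at 10082 and 6761 CPM against 12528 and 8158 CPM. So was Fcer1g, at 3959 and 2930 CPM against 4059 and 3420 CPM. Trdc, the constant segment of the delta chain, was higher in the ungated Ncr1 cells, at 311 and 221 CPM against 73.6 and 62.4 CPM, and Cd3g stood at 1972 and 1303 CPM. Eomes, a factor of conventional NK cells, was lower, at 45.4 and 28.3 CPM against 144 and 109 CPM. The markers thus did not settle whether they were NK cells, and they are given apart from the gated NK cells.

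NK1.1 transcripts were highest in NK cells in both libraries. Klrb1c stood at 1105 CPM (1033 to 1180) in vehicle NK cells, from 885 UMIs, and at 1232 CPM (1100 to 1376) in antibiotics NK cells, from 316 UMIs. iNKT cells followed with 325 CPM (297 to 354) in the vehicle and 579 CPM (549 to 610) in the antibiotics library. Other NKT-like cells held 315 CPM (306 to 324) and 593 CPM (581 to 606), and the intervals of iNKT and other NKT-like cells overlapped in both libraries. Other T cells held 70.9 CPM (62.2 to 80.5) and 243 CPM (224 to 264). B cells, which should lack the receptor, showed 30.9 CPM and 44.8 CPM, and pDC 32.9 and 37.3 CPM, values whose intervals overlapped each other in both libraries.

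**Figure D1:**
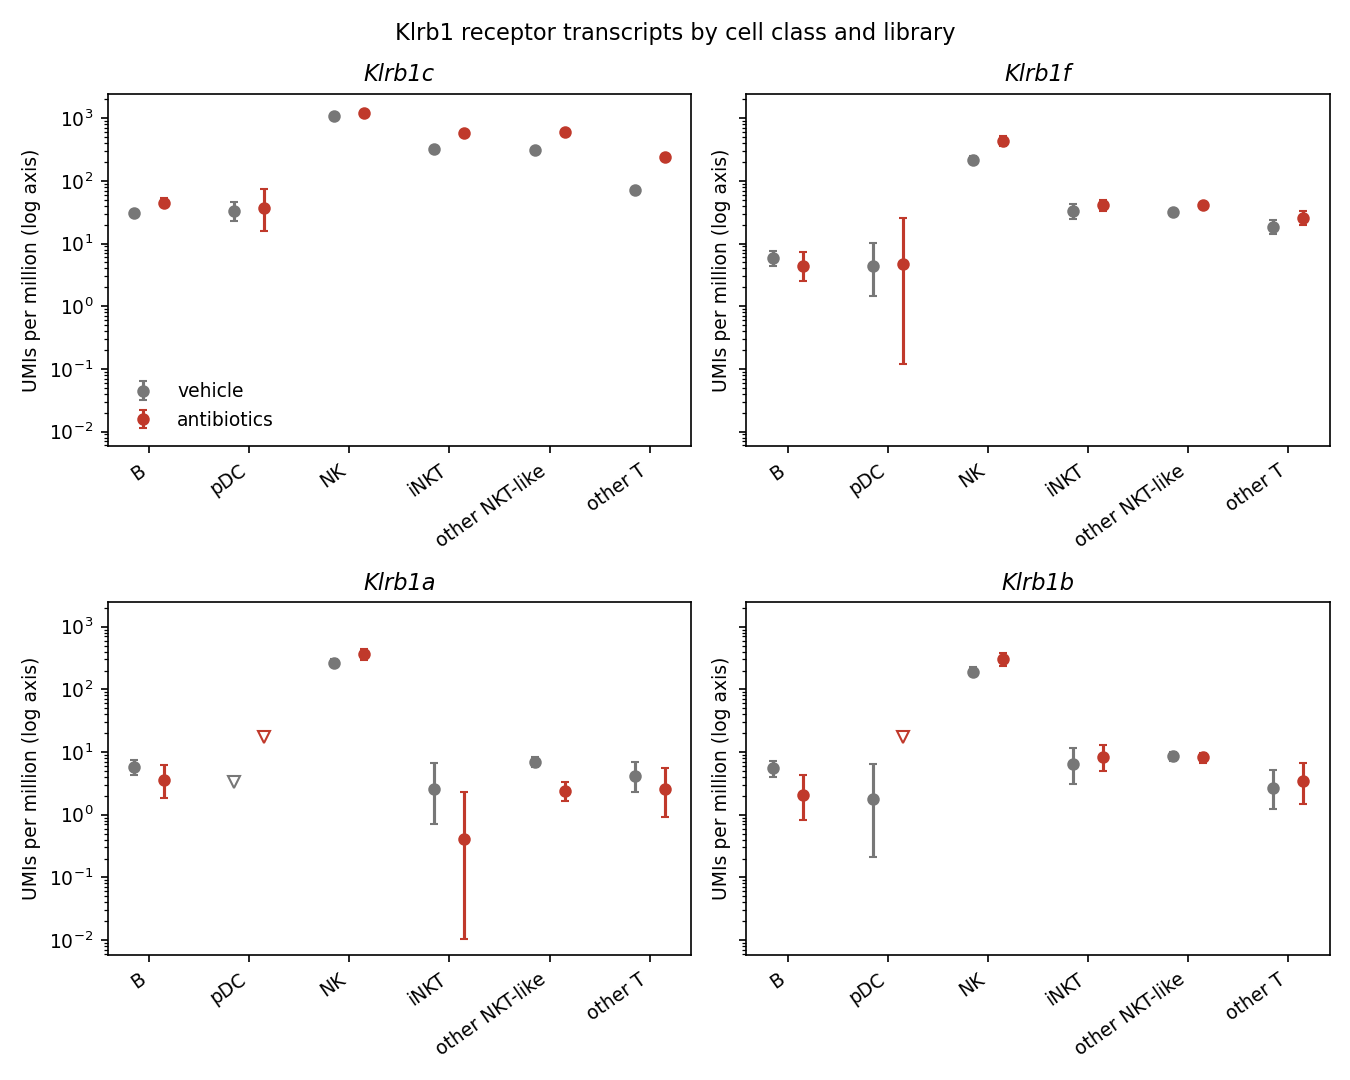
CPM (log axis) of the 4 Klrb1 receptor genes in each gated class, grey for the vehicle and red for the antibiotics library. Points are summed counts of 1 library, bars exact 95% Poisson intervals, and open triangles the upper limit where no UMI was found. All 4 receptors peak in NK cells, and Klrb1c alone stays above 200 CPM in iNKT and other NKT-like cells of both libraries.

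The antibiotics library had a higher Klrb1c level in every T cell class, and in gated NK cells the interval of the ratio held 1. The ratio of antibiotics over vehicle was 1.78 (1.61 to 1.98) in iNKT cells, 1.89 (1.82 to 1.95) in other NKT-like cells and 3.43 (2.94 to 4.01) in other T cells, or 0.83, 0.91 and 1.78 on the log2 scale. In gated NK cells it was 1.12 (0.978 to 1.27). In B cells it was 1.45 (1.18 to 1.77). The UMIs were spread over many cells in other NKT-like and iNKT cells, and less so in other T cells. The 5 cells with most Klrb1c held 1.27% and 0.617% of the UMIs of vehicle and antibiotics other NKT-like cells. In iNKT cells the 5 top cells held 6.72% and 3.14%. In other T cells they held 18.9% and 7.33%, where 97 of 771 vehicle and 230 of 611 antibiotics cells had a Klrb1c UMI.

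The difference was also seen cell by cell at equal depth. After every cell was thinned to 1500 UMIs, 36.2% of vehicle other NKT-like cells (34.5% to 37.9%) and 57.3% of antibiotics cells (55.6% to 58.9%) held at least 1 Klrb1c UMI, against 62.2% and 81.6% before thinning. The libraries also differed among cells with more transcript, with at least 3 UMIs in 2.72% of vehicle and 9.77% of antibiotics cells. In iNKT cells the share with at least 1 UMI was 36.4% (31.2% to 41.8%) and 54.9% (50.8% to 58.9%) after thinning, and 65.5% and 84.4% before. In other T cells it was 7.52% (5.76% to 9.62%) and 23.2% (19.9% to 26.8%) after thinning, and 12.6% and 37.6% before. B cells, the class taken as background, held 2.79% and 4.48% after thinning, and 4.51% and 6.72% before, with median depths of 2527 and 2149 UMIs. NK cells were at 80.9% (75.5% to 85.5%) and 84.8% (76.2% to 91.3%), shares whose intervals overlap.

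**Figure D2:**
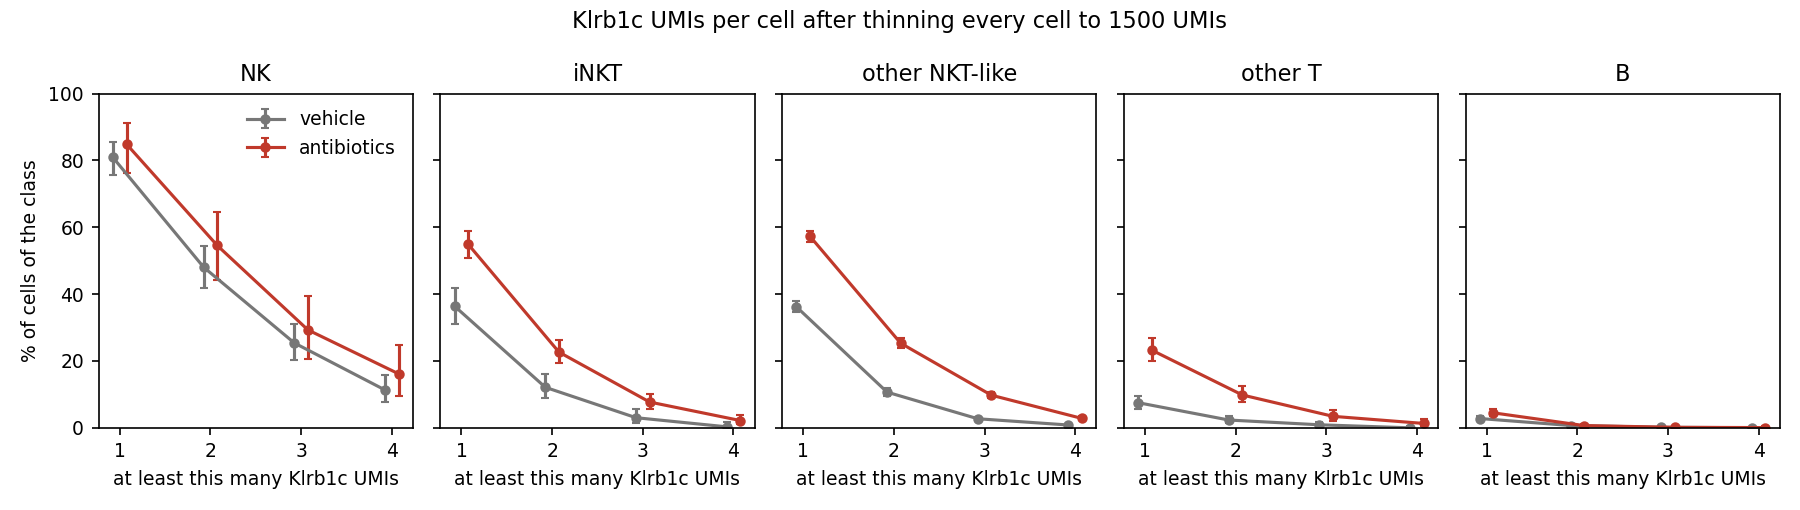
Share of cells (%, y axis) with at least 1, 2, 3 or 4 Klrb1c UMIs (x axis) after each cell was thinned to 1500 UMIs, by class, grey for vehicle and red for antibiotics. Bars are exact 95% binomial intervals over cells of 1 library. The shares with at least 1 UMI have separate intervals in iNKT, other NKT-like and other T cells and overlapping ones in NK cells.

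Free RNA carried more Klrb1c in the antibiotics library too. In barcodes of 1 to 100 UMIs, which hold no cell, Klrb1c stood at 208 CPM (195 to 221) in the vehicle and 406 CPM (386 to 427) in the antibiotics library. The share of free RNA in a class was read from the immunoglobulin transcript Igkc, which T and NK cells do not make. The estimate left out the 1 vehicle and 2 antibiotics cells outside the B gate that held 1000 or more Igkc UMIs, a choice made after the data were seen. Among antibiotics other T cells, 1 such cell held 8444 of 9341 Igkc UMIs. The share was then 11.8% and 7.30% in other NKT-like cells, 10.8% and 7.18% in iNKT cells and 11.2% and 8.74% in other T cells of the vehicle and antibiotics libraries. Free RNA would supply 24.6 and 29.6 CPM of Klrb1c in other NKT-like cells, where 290 and 564 CPM remained. In iNKT cells 302 and 550 CPM remained, and in other T cells 47.7 and 210 CPM. In B cells, given the mean share of the other classes, free RNA would supply 22.1 and 28.6 of the 30.9 and 44.8 CPM measured. Klrb1c in B cells also went with the other Klrb1 transcripts, apart from Klrb1a in the antibiotics library. Of thinned vehicle B cells, 5.95% of the 84 with Klrb1c held Klrb1b against 0.307% of the others. In the antibiotics library 3 of 60 cells with Klrb1c and 0 of the other 1280 held Klrb1b. Klrb1f was held by 3.57% against 0.443% in the vehicle and 3.33% against 0.31% in the antibiotics library. Klrb1a was held by 3.57% against 0.409% in the vehicle library, but by 0 of 60 against 6 of 1280 cells in the antibiotics library. The part of free RNA and of doublets in the B cell level was not tested.

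Klrb1c was higher in both parts when other NKT-like and other T cells were split by another gene, a division chosen after the values were seen. Other NKT-like cells with Cd4, the helper coreceptor, went from 271 to 512 CPM between vehicle and antibiotics libraries (ratio 1.89, 1.73 to 2.06). Those without Cd4 went from 327 to 608 CPM (1.86, 1.79 to 1.93). Other T cells with Lef1, a factor of naive T cells, held 37.4 and 157 CPM (4.18, 3.22 to 5.47), close to the B cell level in the vehicle library only. Those without Lef1 held 132 and 355 CPM (2.70, 2.23 to 3.27). With cells carrying any transcript of Cd79a, Ms4a1 or Igkc left out, 204 vehicle and 288 antibiotics other T cells had 57.5 and 292 CPM, a ratio of 5.09. Gamma-delta T-like ungated cells, with Trdc and Cd3 and without Ncr1, held 173 CPM in 164 vehicle cells and 532 CPM in 154 antibiotics cells (3.07, 2.44 to 3.90).

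Klrb1f, the receptor for Clr-g, was an NK cell transcript with a low T cell level, and its NK level was higher after antibiotics. It stood at 216 CPM (185 to 251) in vehicle NK cells, from 173 UMIs, and at 433 CPM (356 to 521) in antibiotics NK cells, from 111 UMIs. The ratio was 2.0 (1.56 to 2.56), 1.01 on the log2 scale. After thinning, 29.7% (24.2% to 35.7%) of vehicle and 41.4% (31.6% to 51.8%) of antibiotics NK cells held a UMI, intervals that overlap, and the unthinned shares were 46.5% and 57.6%. Other NKT-like cells held 32.0 and 41.2 CPM, a ratio of 1.29 (1.14 to 1.46). iNKT cells held 32.7 and 40.5 CPM (ratio 1.24, 0.873 to 1.77) and other T cells 18.5 and 25.5 CPM (1.38, 0.950 to 2.0). On the log2 scale the iNKT value turned from 0.30 to -0.38 with stricter gates, and the other T value moved from 0.46 to 1.04 with cells thinned and 1.09 without cells holding B cell transcripts, and turned to -1.93 with free RNA subtracted when the Igkc-rich cell was kept. B cells were at 5.84 and 4.45 CPM, and pDC at 5 UMIs and 1 UMI.

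Klrb1a and Klrb1b had far higher levels in NK cells than in the other gated classes. Klrb1a stood at 267 CPM (233 to 305) in vehicle and 363 CPM (293 to 444) in antibiotics NK cells, a ratio of 1.36 (1.05 to 1.74). The inhibitory Klrb1b stood at 192 CPM (163 to 225) and 300 CPM (237 to 375), a ratio of 1.56 (1.17 to 2.07), 0.65 on the log2 scale. In the other 5 gated classes Klrb1a stayed between 0 and 7.0 CPM and Klrb1b between 0 and 8.57 CPM. In other NKT-like cells the 5 cells with most Klrb1b held 17.6% and 14.3% of its UMIs, and for Klrb1a 19.6% and 44.1%. That class in the antibiotics library held more Klrb1b UMIs (119, in 88 of 3635 cells) than the NK cells (77, in 48 cells). Elsewhere the UMIs lay in fewer cells. The 5 cells with most Klrb1b held 90.0% and 55.0% of its UMIs in iNKT cells and 100% and 87.5% in other T cells. After thinning, 30.9% and 41.4% of NK cells held Klrb1a, 50.4% and 58.6% before. Klrb1b was held by 20.3% (15.6% to 25.8%) and 33.3% (24.2% to 43.5%) of thinned NK cells and by 37.5% and 48.5% before thinning, while thinned B cells held either gene in 0.224% to 0.497% of cells.

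The low levels of these receptors outside NK cells rested on few UMIs. In other NKT-like cells Klrb1a had 107 UMIs in 72 vehicle cells and 34 UMIs in 23 antibiotics cells, 7.0 CPM (5.74 to 8.46) against 2.35 CPM (1.63 to 3.28), a ratio of 0.335 (0.221 to 0.498). Cells without Cd4, 2550 vehicle and 3150 antibiotics cells, held Klrb1a at 8.40 and 2.20 CPM (0.263, 0.165 to 0.405), from 99 and 27 UMIs. Cells with Cd4 were at 2.29 and 3.14 CPM, from only 8 and 7 UMIs (1.37, 0.423 to 4.33). Klrb1b in the same class was at 8.57 and 8.22 CPM (0.959, 0.742 to 1.24), -0.06 on the log2 scale. This value turned to 0.63 with cells holding B cell transcripts left out. It turned to 0.43 with free RNA subtracted when the Igkc-rich cells were kept. With the Igkc-rich cells left out, 6.51 and 7.08 CPM of Klrb1b remained after the subtraction. The 6 NK markers stood at 2646 and 1635 CPM in other NKT-like cells, all 6 with UMIs in both libraries, and the free RNA share stood at 11.8% and 7.30%. Their part in the Klrb1a value was not tested. In B cells Klrb1b had 48 and 7 UMIs (0.378, 0.144 to 0.839) and Klrb1a 50 and 12 (0.621, 0.301 to 1.18), both at or below 5.72 CPM, and the NK markers there summed to 675 and 242 CPM. With marked doublets left out, the log2 ratio of Klrb1a in B cells turned from -0.64 to 0.23.

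Ungated cells with Ncr1 held the same receptors at high level. The 402 vehicle and 121 antibiotics ungated cells with Ncr1 and Cd3 had Klrb1c at 852 and 1340 CPM (ratio 1.57, 1.41 to 1.75). Klrb1a in them was at 171 and 281 CPM (1.64, 1.29 to 2.08). Klrb1f was at 174 and 252 CPM (1.45, 1.12 to 1.85) and Klrb1b at 160 and 201 CPM (1.26, 0.951 to 1.65). Together with the gated NK cells they made 658 vehicle and 220 antibiotics cells, in which the ratio of Klrb1c was 1.37 (1.26 to 1.49), from 942 to 1295 CPM. In this pooled set Klrb1f was at 189 and 328 CPM (1.74, 1.46 to 2.06), Klrb1a at 205 and 315 CPM (1.54, 1.29 to 1.82) and Klrb1b at 171 and 243 CPM (1.42, 1.17 to 1.72). The interval of Klrb1c thus held 1 in the narrow gate and lay above 1 in the pooled set.

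Gated NK cells differed little by Cxcr6, the homing receptor of liver-resident lymphocytes, for NK1.1. Klrb1c stood at 1107 and 1104 CPM in vehicle NK cells with and without Cxcr6, and at 1247 and 1222 CPM in antibiotics NK cells. Klrb1f in cells without Cxcr6 was at 199 CPM in vehicle and 450 CPM in antibiotics NK cells (2.27, 1.66 to 3.07), and with Cxcr6 at 264 and 406 CPM (1.54, 1.00 to 2.34). Single NK cells could hold several of the receptors. Of the thinned vehicle NK cells with Klrb1a, 16.5% also held Klrb1b, against 22.0% of those without Klrb1a, and in antibiotics NK cells the shares were 29.3% and 36.2%. Of those with Klrb1f, 39.5% held Klrb1a against 27.2% of those without in the vehicle library, and 43.9% against 39.7% in the antibiotics library.

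Clec2d, which encodes the Clr-b ligand of the inhibitory receptor, was found at similar levels in all classes. Its levels ran from 107 CPM (85.9 to 133) in NK cells to 184 CPM (163 to 206) in iNKT cells of the vehicle library, and from 105 CPM (94.6 to 117) in B cells to 160 CPM in NK and iNKT cells of the antibiotics library. B cells held 131 CPM (123 to 138) in the vehicle library, from 1141 UMIs, against 105 CPM from 355 UMIs, a ratio of 0.806 (0.713 to 0.908) and -0.31 on the log2 scale. Other NKT-like cells held 162 and 150 CPM, a ratio of 0.929 (0.877 to 0.985), -0.11 on the log2 scale, but 0.05 when ribosomal and mitochondrial genes were left out of the totals. Other T cells held 133 and 128 CPM (0.961, 0.828 to 1.12) and iNKT cells 184 and 160 CPM (0.871, 0.746 to 1.02), a direction that turned with stricter gates. In NK cells Clec2d was at 107 and 160 CPM (1.49, 1.00 to 2.18), from 86 and 41 UMIs, and at 138 and 166 CPM (1.20, 0.950 to 1.51) in the pooled Ncr1 cells. pDC held 119 and 112 CPM.

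Clec2i, which encodes the Clr-g ligand of Klrb1f, was highest in B cells. B cells held 168 CPM (159 to 177) in the vehicle library, from 1467 UMIs, and 252 CPM (236 to 270) in the antibiotics library, from 851 UMIs, and no other gated class exceeded 117 CPM. The ratio in B cells was 1.5 (1.38 to 1.64), or 0.59 on the log2 scale, at the edge of the 1.5-fold threshold. It fell to 0.40 with cells of at least 2000 UMIs, under 1.5-fold, and was 0.71 with cells thinned. With free RNA subtracted it was 0.52 when the Igkc-rich cells were kept, under 1.5-fold, and 0.62 with them left out, past 1.5-fold. After thinning, 20.8% (19.3% to 22.2%) of vehicle and 31.0% (28.5% to 33.5%) of antibiotics B cells held a UMI, against 32.8% and 41.0% before. The ratio was nearly the same in B cells with Fcer2a, the low-affinity IgE receptor of follicular B cells, at 1.51 (170 and 257 CPM), and without it, at 1.51 (164 and 249 CPM). The other lymphoid classes all had ratios above 1: 1.67 (1.04 to 2.65) in NK cells, 1.31 (1.06 to 1.62) in iNKT cells, 1.25 (1.16 to 1.35) in other NKT-like cells and 1.31 (1.07 to 1.61) in other T cells. pDC alone had a value below 1, 0.549 (0.266 to 1.02), from 105 and 11 UMIs.

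**Figure D3:**
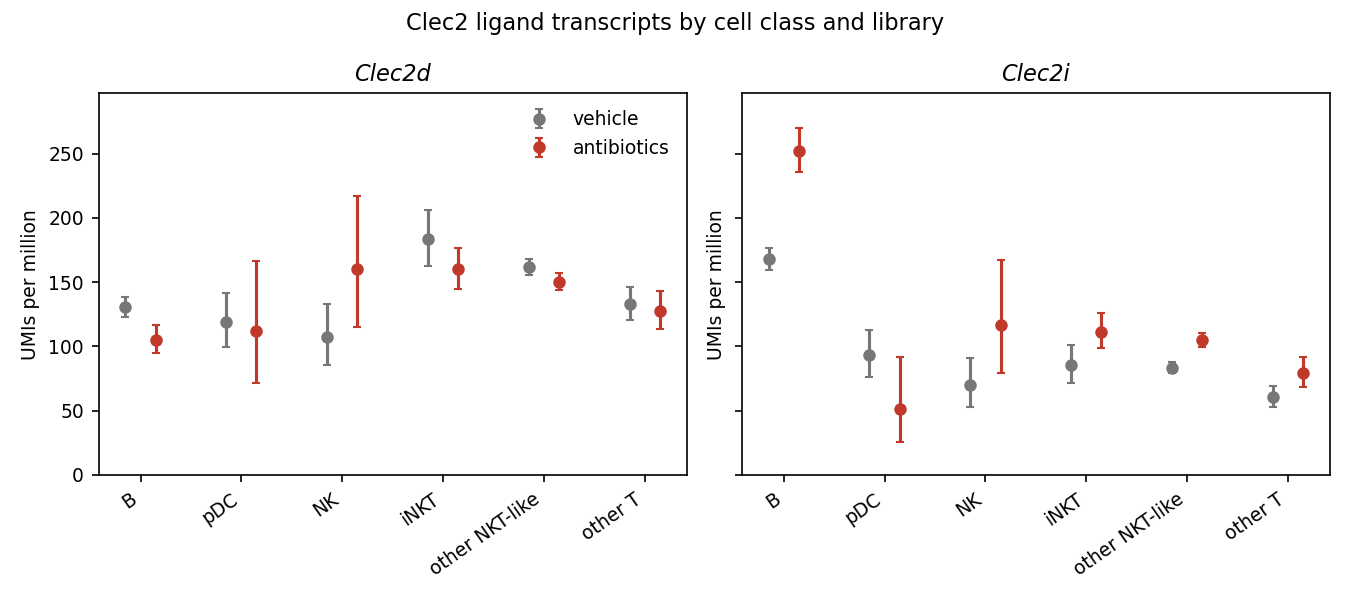
CPM (linear axis from 0) of the ligand genes Clec2d and Clec2i by class, grey for vehicle and red for antibiotics, with exact 95% Poisson intervals. Clec2d lies between 105 and 184 CPM in every class, and Clec2i is highest in B cells, at 168 CPM in the vehicle and 252 CPM in the antibiotics library.

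At the main setting, Clec2d alone of the members was past 1.5-fold between the libraries in no class. In NK cells its log2 ratio of 0.58 lay just under the threshold. Over 13 other settings it ran from 0.24 to 0.72, on both sides of the threshold. It was 0.71 with cells of at least 2000 UMIs and 0.24 with cells holding B cell transcripts left out. Of the 36 pairs of member and class, 30 had at least 30 UMIs over both libraries, and 11 of them were past 1.5-fold, 7 higher and 4 lower in the antibiotics library. In NK cells 3 of 6 members were past 1.5-fold, all higher (Klrb1f, Klrb1b and Clec2i), where 22.4% of all 4193 genes tested were past it in either direction. In other NKT-like cells 2 of 6 were past it, Klrb1c higher and Klrb1a lower, beside 14.5% of all genes. In iNKT cells Klrb1c was the 1 of 5 members past it, beside 16.2%, and in other T cells the 1 of 4, beside 15% of all genes. In B cells 3 of 6 were past it, Clec2i higher and Klrb1a and Klrb1b lower, beside 12.4%, and in pDC Clec2i was the 1 of 3, beside 24.6%. The median log2 ratio of the members was 0.62 in NK cells, where the median over all genes was 0.03, and 0.13 in other NKT-like cells, where it was -0.02. It was 0.33 in iNKT cells (all genes -0.04) and 0.43 in other T cells (0.03), but -0.34 in B cells (0.08) and -0.07 in pDC (0.02).

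**Figure D4:**
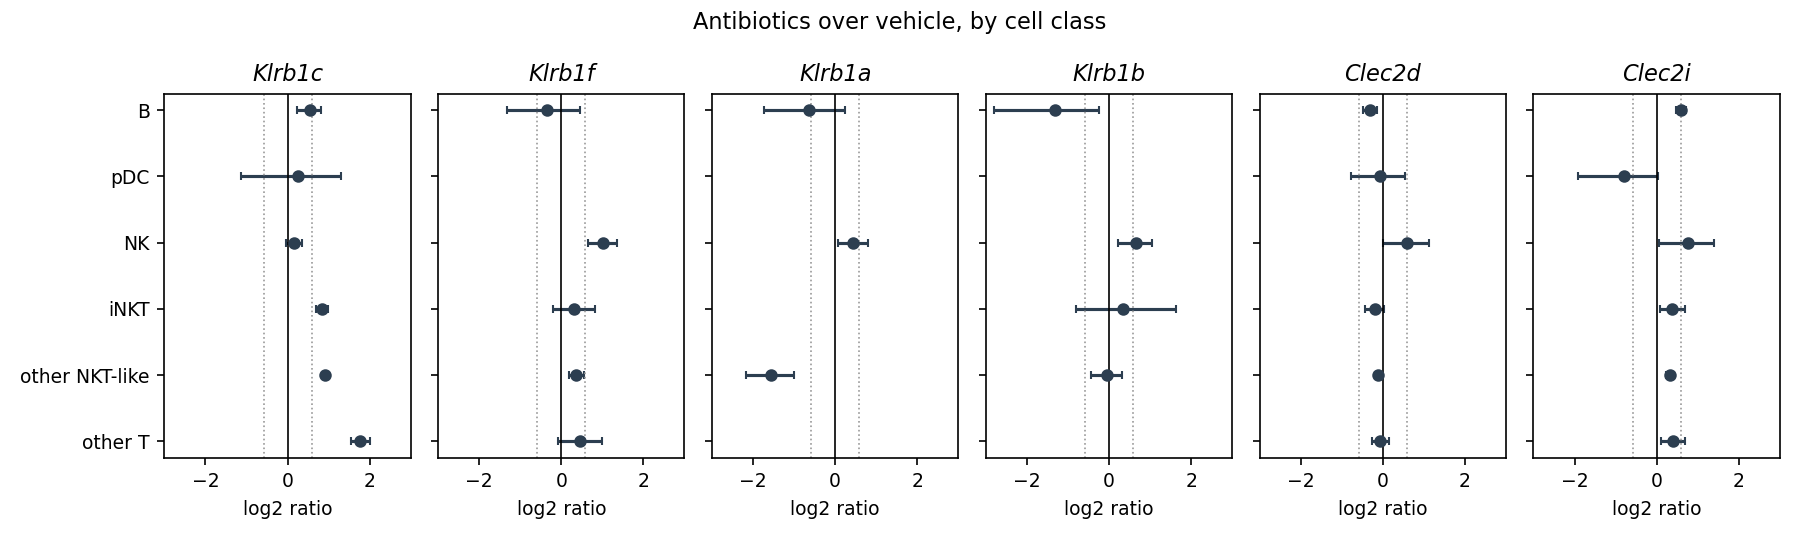
Log2 ratio of antibiotics over vehicle CPM (x axis) for each member by class (y axis), with exact conditional 95% intervals; dotted lines mark 1.5-fold and pairs under 30 UMIs are left out. Klrb1c lies to the right of 0.5 in iNKT, other NKT-like and other T cells, and Clec2d lies between the dotted lines in each class, nearly on the upper one in NK cells.

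Other receptors of the NK gene complex past 1.5-fold were lower in the antibiotics library in NK, iNKT, other NKT-like and also B cells, against the direction of Klrb1c. In other NKT-like cells 15 of the 20 listed receptors had 30 UMIs, 0 were past 1.5-fold higher and 8 past it lower, with a median of -0.80. There 9.04% of all genes were past it lower. In NK cells 13 had them, 0 were higher and 5 lower, with a median of -0.38, beside 10.7% of all genes lower. In iNKT cells 0 of 8 were higher and 3 lower, beside 8.62% of all genes. In B cells, the class taken as background for the receptors, 0 of 13 were higher and 8 lower, beside 4.65% of all genes. The B cell median was -1.37. Klrd1, which encodes CD94, the partner of the NKG2 receptors, was at 1819 and 1392 CPM in NK cells and at 353 and 290 CPM in other NKT-like cells. Klrk1, which encodes the activating receptor NKG2D, was at 1494 and 1903 CPM in NK cells and at 295 and 356 CPM in other NKT-like cells. Klre1 was at 1212 and 792 CPM in NK cells (ratio 0.654, 0.559 to 0.761) and Klrc1, which encodes NKG2A, at 570 and 784 CPM. The Ly49 receptor genes Klra4 and Klra7, named after their values were seen, had the lowest ratios in NK cells, 0.536 (0.434 to 0.653) and 0.387 (0.288 to 0.504). In other T cells 2 of 13 receptors were past 1.5-fold higher, Klrk1 and Klrc2, and 7 lower, beside 8.49% and 6.56% of all genes. In pDC 1 of 3 was higher and 0 lower, beside 11.1% and 13.5%.

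**Figure D5:**
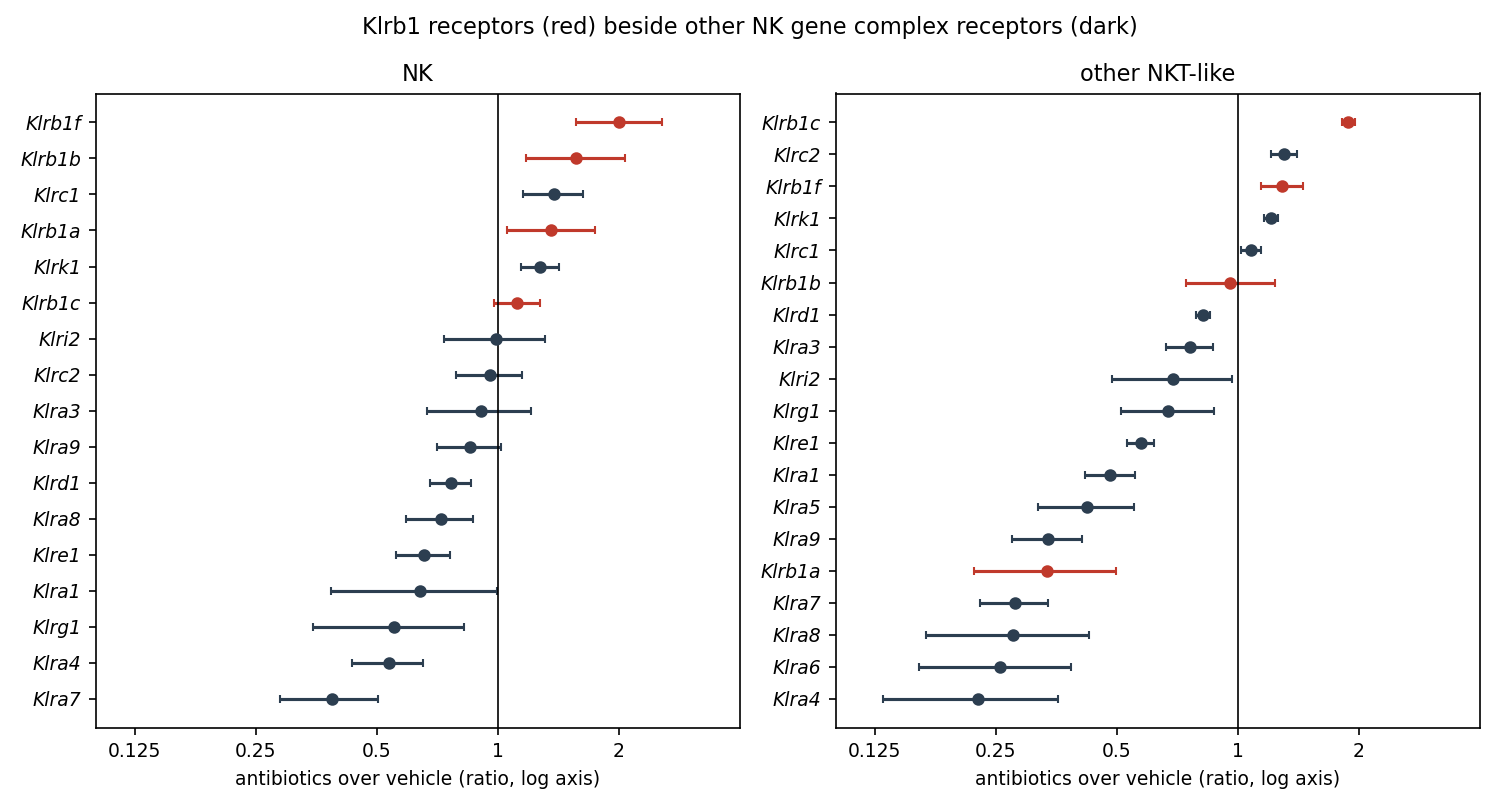
Ratio of antibiotics over vehicle CPM (log axis) in NK cells and other NKT-like cells for the Klrb1 receptors (red) and the other NK gene complex receptors with at least 30 UMIs (dark), ordered by ratio, with exact conditional 95% intervals. The Klrb1 receptors lie among the highest ratios in NK cells, while in other NKT-like cells Klrb1c is highest and Klrb1a lies among the lowest.

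Genes through which the family signals did not share the Klrb1c pattern. Fcer1g, which encodes the gamma chain that couples NK1.1 to its kinases, was at 4059 and 3420 CPM in NK cells and at 216 and 67.8 CPM in other NKT-like cells (ratio 0.314, 0.292 to 0.337). Tyrobp, which encodes the adaptor DAP12, was at 4350 and 3174 CPM in NK cells and at 201 and 59.8 CPM in other NKT-like cells. Both are also myeloid transcripts, and the 6 myeloid markers, Fcer1g among them, went from 579 to 244 CPM in other NKT-like cells; the part of free RNA in these values was not tested. Lck, the kinase that binds the CxCP motif, was at 510 and 437 CPM in NK cells and 595 and 553 CPM in other NKT-like cells, and Hcst, which encodes DAP10, at 1055 and 1065 CPM and at 1047 and 1043 CPM. Of the 15 signalling genes, 0 were past 1.5-fold higher in NK, iNKT, other NKT-like or other T cells. Those lower were 2 of 14 tested in NK cells, 2 of 13 in iNKT cells, 4 of 15 in other NKT-like cells and 3 of 14 in other T cells. Of all genes, 10.7%, 8.62%, 9.04% and 6.56% were lower in these classes. The counts of 2 genes in NK and iNKT cells were too small to be set apart from those shares.

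Of the other Klrb1 and Clec2 genes on the list, 6 of 11 were in the files and Cd69 alone reached 30 UMIs in a class. Cd69, which encodes an early activation antigen of the same lectin family, was lower in all 6 classes, at 109 and 79.3 CPM in other NKT-like cells and 86.1 and 66.3 CPM in NK cells. Klrb1 reached 9.99 and 7.80 CPM in NK cells, and Clec2e and Clec2g stayed at or below 2.37 CPM in every gated class. Among 15 transcription factors of NK and innate-like T cells, 4 of 15 tested in other NKT-like cells were past 1.5-fold, Prdm1 higher (8.70 and 13.7 CPM) and Eomes, Nfil3 and Zeb2 lower, beside 5.43% of all genes higher and 9.04% lower. In other T cells 3 of 12 were past it, Id2 higher and Eomes and Zeb2 lower, beside 8.49% and 6.56% of all genes. Id2, which innate lymphocytes require, was at 2174 and 2531 CPM in other NKT-like cells and 1675 and 2359 CPM in NK cells. Ets1 was at 315 and 359 CPM, Lef1 at 111 and 117 CPM and Zeb2 at 9.75 and 4.77 CPM in other NKT-like cells.

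Across the 12 sums of 6 classes in 2 libraries, genes were ranked by how alike their pattern was to that of each member. The likeness is Pearson's r of log2(CPM + 10) among 2096 genes, and sums of 1 library share its cells, depth and free RNA. The 5 genes most like Klrb1a were S1pr5 (r = 0.991), Klrb1b, Klri2, Ncr1 and Klra4, of which Ncr1 defines the NK gate and so matches by construction. Those most like Klrb1b were Prf1 (0.988), Klrb1a, Klri2, Spry2 and S1pr5. Those most like Klrb1f were Il18rap (0.986), Klrc2, Ctla2b, Il18r1 and Klra3. Klrb1c, with its wider range of cells, was most like Ifitm10 (0.986), Tonsl, Cdc42ep3, Peak1 and Ifngr1. The ligands had looser matches: Clec2d was most like Pdrg1 (0.875), Rora, Eef1d, Lpxn and Tap2, and Clec2i most like Tcf3 (0.909), Ptp4a2, Sorl1, Ctcf and Lrmp. Between members, r was 0.985 for Klrb1a with Klrb1b, 0.901 for Klrb1c with Klrb1f and -0.06 for Clec2d with Clec2i.

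The share of each transcript that a class supplied was also compared between the libraries. Other NKT-like cells supplied 58.2% of the 8259 Klrb1c UMIs in vehicle cells and 71.0% of 12097 in antibiotics cells, while NK cells supplied 10.7% and 2.61%, and iNKT cells 6.13% and 11.6%. Class size differed too. NK cells made up 2.25% and 1.01% of all UMIs in cells, and other NKT-like cells 43.0% and 56.8%. B cells made up 24.6% and 13.2%, and iNKT cells 4.38% and 9.49%. The share of a transcript that a class supplied thus depended on class size as well as on its level there. Klrb1a came mostly from gated NK cells (32.2% and 37.5% of 665 and 248 UMIs) and from ungated cells (41.5% and 41.1%), shares that changed little. Klrb1b came from gated NK cells for 25.2% and 23.3% of 612 and 330 UMIs and from other NKT-like cells for 21.4% and 36.1%. For the ligands, B cells supplied 21.9% and 9.82% of Clec2d UMIs and 39.4% and 27.2% of Clec2i UMIs, and other NKT-like cells supplied 47.4% and 60.2% of Clec2d.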

How the data were processed

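bcl2fastq, Cell Ranger and the mm10 build are listed in the processing notes of the submitters; their versions and settings are not given in the sources used. The deposited values are raw UMI counts: whole numbers for 28692 genes in all 737280 barcodes of the kit, not normalized, with 41474311 UMIs in the vehicle and 29811401 in the antibiotics library. From these, cells were kept and gated as stated in the report; 13 vehicle barcodes and 1 antibiotics barcode were left out for mitochondrial UMIs. Counts were summed per class and library and divided by the class total. Ratios carry exact conditional intervals, CPM exact Poisson intervals and shares Clopper-Pearson intervals, at 95%; log2 ratios have 0.5 added to each sum. Pairs under 30 UMIs over both libraries were given as levels alone. Past 1.5-fold stands in for a call, because 1 library per condition allows no test. Functions were tested on simulated data. Doublets were scored with Scrublet in scanpy 1.11.5 at an expected 6% and kept. Intervals came from scipy 1.17.1 under Python 3.11.15, tables from pandas 2.3.3, plots from matplotlib 3.10.9 and alignments of coding sequences from biopython 1.88.

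The members, gates and gene lists were chosen with earlier results of these data known. Named genes were the 6 members, the 5 genes most like each (at least 100 CPM in 1 or more sums, without antigen receptor, ribosomal and mitochondrial genes) and up to 4 genes of each list by mean CPM. Others are named as chosen after their values were seen, as are Prdm1, Eomes, Nfil3 and Klrc2. Each ratio was recomputed under 11 alternatives, and splits by Cd4, Lef1, Cxcr6, Fcer2a, Ncr1 and B cell transcripts were added after the data were seen.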

Additional observations from a re-analysis of the deposited data

Results flagged for a closer look

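For 3 members, 1 class had an interval above 1 and another an interval below 1; the difference between classes was not tested. Klrb1a had a log2 ratio of antibiotics over vehicle of 0.45 in NK cells and -1.56 in other NKT-like cells, the latter from 107 and 34 UMIs. Klrb1b had 0.65 in NK cells and -1.32 in B cells, the latter from 48 and 7 UMIs. Clec2d had 0.58 in NK cells, -0.31 in B cells and -0.11 in other NKT-like cells.

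Barcodes of 1 to 100 UMIs, which no comparison of cells uses, held Klrb1c at 406 CPM in the antibiotics library against 208 CPM in the vehicle library, with intervals that do not overlap. Clec2i was at 109 CPM (98.7 to 120) in these barcodes of the antibiotics library and at 81.5 CPM (73.7 to 90.0) in those of the vehicle library. Clec2d in the same barcodes was at 166 and 169 CPM.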

How the results depend on the processing

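No paired analysis was possible because each condition has 1 library. Of 30 log2 ratios, all 30 stayed inside their own interval with 1000 UMIs, 5% mitochondrial UMIs, a pseudocount of 1, shared barcodes left out or cells weighted alike. Leaving marked doublets out turned Klrb1a in B cells to 0.23. Scaling without ribosomal and mitochondrial genes moved the median of all genes by 0.17 in iNKT and 0.15 in other NKT-like cells, and gave Klrb1c 1.00 and 1.07 there and Clec2d 0.05 in other NKT-like cells. Subtracting free RNA, without the Igkc-rich cells left out, gave 1.03 for Klrb1c and 0.08 for Clec2d in other NKT-like cells and -0.74 for Clec2d in B cells, which was -0.27 with those cells left out; 6 pairs fell to 0 or below in a library and have no value. Of settings chosen after seeing the data, leaving out cells with B cell transcripts gave 0.85 for Klrb1c and 0.02 for Clec2d in other NKT-like cells, and adding the ungated Ncr1 cells to NK cells gave 0.46 for Klrb1c. Of the 22 pairs other than the 8 main ones, 7 were past 1.5-fold, and 11 with cells thinned. With 100 UMIs as the gene minimum, the share of all genes past 1.5-fold was 6.54% in B cells, 12.8% in pDC, 13% in NK, 9.44% in iNKT and 8.58% in other T cells. Apart from the scaling shift and fewer genes tested, causes were not tested. Depth limits Klrb1a and Klrb1b outside NK cells, and all pDC values.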
